A study of Rattus norvegicus with 9 samples.

Results

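The transcripts of 5 genes not typical of neurons, out of 29516 Ensembl gene identifiers counted, were followed through the ageing rat cerebral cortex. They were the plasma protein genes Alb (ENSRNOG00000002911), Apob (ENSRNOG00000005542) and Gc (ENSRNOG00000003119), the beta-globin gene listed as LOC689064 (ENSRNOG00000031230), and the endocytic receptor gene Lrp2 (ENSRNOG00000030487). They were picked by identifier, from names that the study lists for differences on these same samples. Alb, Apob and LOC689064 entered through a gene-level difference between 12 and 28 months, Lrp2 through a transcript-level difference between the same ages, and Gc through a transcript-level difference between 6 and 12 months. Values of those contrasts are therefore given for these genes as a description, and counts of calls that include them support nothing.

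RNA came from the cerebral cortex of male BN rats (BN/SsNOlaHSD), fed ad libitum and killed at 6, 12 or 28 months. Each library was made from the pooled RNA of 2 rats, with 3 libraries per age, ribosomal RNA removed and sequencing on the SOLiD platform. The same counts were deposited once as the second sample of 6 months and once as the third of 12 months, which leaves 8 independent libraries. This library, called the shared library here, has no settled age and entered no age group in the main comparisons, which rest on 7 libraries (2 at 6 months, 2 at 12 months and 3 at 28 months). Pooled pairs of rats hide the spread between animals, and p-values measure the spread between pools only. Gene reads numbered from 6513376 to 9196951 in a library, of which 1 identifier took 44.0 to 52.4%. Markers of neurons and astrocytes were present in all 8 libraries, with 526 to 1267 reads of Nptxr, a neuronal pentraxin receptor, and 349 to 1085 of Gfap, the intermediate filament of astrocytes.

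Alb encodes serum albumin, the main protein of plasma and a carrier of fatty acids and hormones. Apob encodes apolipoprotein B, the structural protein of low-density lipoprotein, and Gc the vitamin D-binding protein, and all of these are made chiefly by the liver. Beta-globin is made in red cell precursors and is carried as RNA by young red cells in the blood of every unperfused tissue. Lrp2, known as megalin, is a large endocytic receptor of absorptive epithelia such as the kidney tubule, and in the brain of choroid plexus and ependyma. It takes up albumin, apolipoprotein B and the vitamin D-binding protein, so the 5 genes comprise ligands and 1 of their receptors beside a blood cell transcript.

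Alb and Gc belong to 1 gene family. In the RefSeq annotation (assembly GRCr8) both lie on chromosome 14, with 4 protein-coding genes between them (Ankrd17, Cox18, Adamts3 and Npffr2), and the other family members Afp and Afm lie on the far side of Alb. RefSeq sequence upstream of the start site was at hand for 4 of the 5 genes, under the RefSeq symbol Hbb-bs for LOC689064 and with no entry for Apob. The 250 bases before the start of Alb and Gc are printed because these related genes had nearly no reads at 6 months. Capitals mark GTTAATNAT, the core of the binding motif of the liver factor HNF1, found once in each sequence on the strand of the gene. Alb lies at chr14:17906980-17907229 on the minus strand and Gc at chr14:18916005-18916254 on the plus strand (GRCr8, which is not the build of the counts).

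Alb: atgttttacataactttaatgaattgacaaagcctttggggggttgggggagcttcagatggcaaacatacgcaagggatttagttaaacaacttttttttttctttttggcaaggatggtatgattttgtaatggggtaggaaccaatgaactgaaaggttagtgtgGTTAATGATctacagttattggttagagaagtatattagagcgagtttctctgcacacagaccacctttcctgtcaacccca
Gc: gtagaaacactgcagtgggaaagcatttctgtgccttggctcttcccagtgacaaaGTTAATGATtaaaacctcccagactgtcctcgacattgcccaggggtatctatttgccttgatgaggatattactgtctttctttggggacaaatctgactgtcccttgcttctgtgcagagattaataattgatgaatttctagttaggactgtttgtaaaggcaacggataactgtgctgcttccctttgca

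The motif spanned bases 82 to 74 before the start of Alb and bases 194 to 186 before that of Gc. On either strand, 0.666% of 33469 rat promoter windows of this length held it. The windows of LOC689064 and Lrp2 held no match. LOC689064 had TATAAA at bases 29 to 24 before its start, which occurred in 12.9% of all windows, and 3 matches of CACCC, which occurred in 49.2%. A match describes the letters of these windows only.

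**Figure D1:**
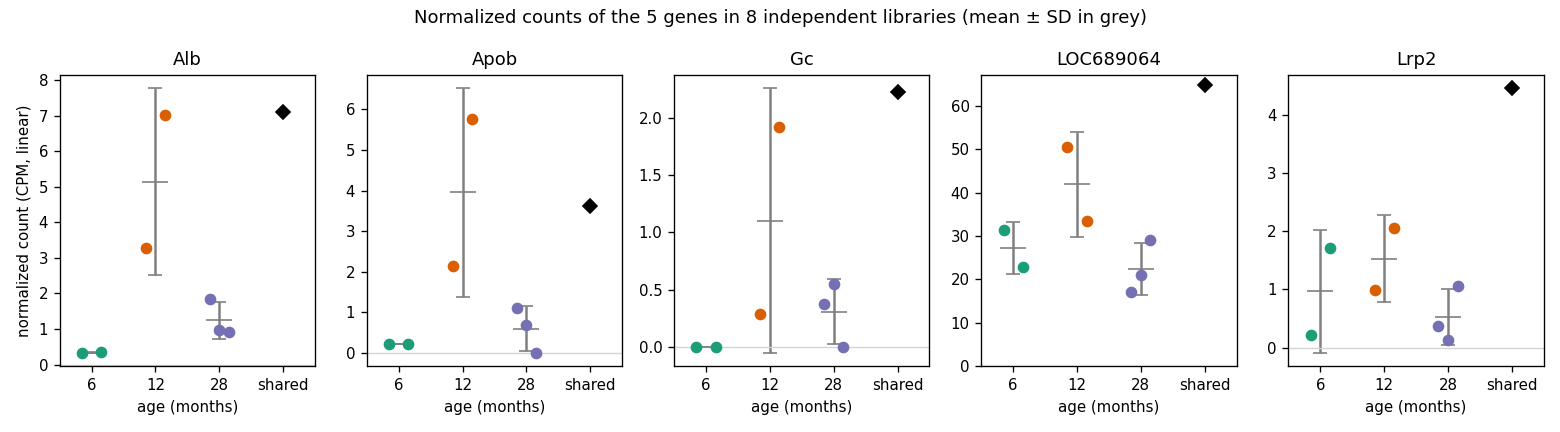
Normalized counts (CPM after TMM, linear axis) of each gene by age, with 1 point per library, the mean ± SD of the libraries of settled age in grey and the shared library as a black diamond. For Alb, Apob and, by a small margin, LOC689064 the 12-month points lie above all 6-month and 28-month points, as for 8.36% of all genes tested. The shared library is above all other points for Alb, Gc, LOC689064 and Lrp2, for Alb and Gc within counting error.

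Alb reads were scarce at 6 months and most frequent at 12 months. Its reads numbered 3 in both libraries at 6 months (samples 1 and 3), 23 and 51 at 12 months (samples 1 and 2), 15, 7 and 6 at 28 months (samples 1 to 3), and 51 in the shared library. As normalized counts, which are CPM after TMM scaling (reads of a gene relative to the size of the library), this was 0.335 ± 0.0119 (SD, n = 2) at 6 months, 5.14 ± 2.64 (SD, n = 2) at 12 months and 1.24 ± 0.528 (SD, n = 3) at 28 months. With 3 reads in both 6-month libraries, the SD there reflects their scaled sizes alone. No library of 1 age overlapped with a library of another age. Of all genes tested, 8.36% were higher in both 12-month libraries than in every other of settled age. That share does not ask that 6 and 28 months be apart, and the share with all ages apart was not computed. A sum of few reads is imprecise on its own account: the 74 reads at 12 months against 6 at 6 months gave a ratio of 15.5, with an exact 95% interval of 6.77 to 43.5 that covers counting error only.

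Between 6 and 12 months, Alb rose with a log2FC of 3.88 (standard error 0.58, adjusted p = 0.0142 by edgeR's quasi-likelihood test, n = 2 against 2). The adjusted p ranged from 4.99e-08 to 0.997 over the alternatives. With each of the 4 libraries left out in turn, the log2FC was 3.23 to 4.31, and lowest without 12 months sample 2. Each of these fits leaves 1 library at an age, so their p-values add little. The call depended on where the shared library was placed. With it at 12 months only, the log2FC of Alb was 4.04 (adjusted p = 0.00952), with it at 6 months only 1.06 (adjusted p = 0.806), and with it at both ages as labelled 1.24 (adjusted p = 0.997, same test). The 12-month libraries also took part in the choice of Alb, so this test is not independent of that choice. In bulk tissue, fewer cells of a type and less RNA per cell cannot be told apart.

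Alb had a log2FC of 1.86 between 6 and 28 months (standard error 0.69, adjusted p = 0.671 by the quasi-likelihood test, range over the alternatives 0.415 to 1.0), and the 3 libraries at 28 months all lay above both at 6 months, as they did for 10.9% of all genes tested. With the shared library counted at 6 months, the log2FC was -0.96. Between 12 and 28 months, the contrast that chose the gene, the log2FC of Alb was -2.0 (standard error 0.44), both 12-month libraries lay above all 3 at 28 months, as for 13.2% of all genes tested, and without 12 months sample 2 the log2FC was -1.36.

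Apob had the same order of ages as Alb. Its reads numbered 2 in both libraries at 6 months, 15 and 42 at 12 months (samples 1 and 2), 9, 5 and 0 at 28 months (samples 1 to 3), and 26 in the shared library. The normalized counts were 0.223 ± 0.00795 (SD, n = 2) at 6 months, 3.95 ± 2.57 (SD, n = 2) at 12 months and 0.601 ± 0.561 (SD, n = 3) at 28 months. The 12-month libraries were above all others of settled age, as for 8.36% of all genes tested. Those of 28 months lay on both sides of those of 6 months, but counts of 0 and 2 reads are too few to order libraries.

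Apob rose between 6 and 12 months with a log2FC of 4.05 (standard error 0.71, adjusted p = 0.0324 by the quasi-likelihood test, range over the alternatives 1.67e-06 to 0.997). This call was lost without 12 months sample 2 (log2FC 3.17, adjusted p = 0.109), and with the shared library at 6 months only (log2FC 1.62, adjusted p = 0.689). It held with that library at 12 months only, where the log2FC was 4.0 (adjusted p = 0.0266). At 28 months Apob had a log2FC of 1.42 relative to 6 months (standard error 1.11, adjusted p = 0.887 by the same test), which was -1.01 with the shared library counted at 6 months. Between 12 and 28 months, the contrast that chose Apob, the log2FC was -2.61 (standard error 0.67), and it was -1.74 without 12 months sample 2 and -3.39 without 28 months sample 1.

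Gc was the rarest of the plasma protein transcripts in reads. No read was found at 6 months (0 in samples 1 and 3), against 2 and 14 at 12 months (samples 1 and 2), 3, 4 and 0 at 28 months (samples 1 to 3), and 16 in the shared library. Taking 3 reads over both 6-month libraries together as the limit that a count of 0 allows, the 16 reads at 12 months, the contrast that chose Gc, were at least 6.68-fold higher when taken as exact, with all but 2 of them from 12 months sample 2. With the counting error of both ages, the exact 95% lower limit of the ratio was 4.83, and that of the 7 reads at 28 months against 0 was 1.18. Since 28 months sample 3 was also at 0, no fold is given for that age. Gc was not tested between 6 and 28 months, since no library of these ages reached the minimum of 5 reads. Between 12 and 28 months, Gc had a log2FC of -1.75 (standard error 0.97, adjusted p = 0.719 by the quasi-likelihood test, range over the alternatives 0.518 to 0.998), and the libraries of these ages overlapped.

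Of the 5 genes, 2 (Alb and Apob) had an adjusted p under 0.05 from 6 to 12 months by the quasi-likelihood test, both higher at 12 months. Over the 15966 genes tested, 1.2% passed, 0.313% higher and 0.883% lower at 12 months, and 23.1% were higher at 12 months with no overlap between the libraries. The exact test called 3 of the 5 genes and 2.9% of all, and DESeq2 called 1 of the 5 and 1.54% of all, with no adjusted p for 3 of them. The further gene of the exact test was Gc, which was chosen on these ages. From 6 to 28 months, the quasi-likelihood test passed 0 of the 4 genes tested and 0.206% of 16042 genes, and 1 of the 4 (Alb) had an unadjusted p under 0.05. The exact test, with 0.86% of all genes, passed 0 of these 4 as well. DESeq2, with 0.436% of all genes, also passed 0, but of the 4 it gave an adjusted p for LOC689064 only. From 12 to 28 months the quasi-likelihood test passed 0 of the 5, with 0.12% of 15840 genes and an unadjusted p under 0.05 for 3 of the 5. There the exact test passed 3 (0.808% of all genes) and DESeq2 0 (0.518%), with no adjusted p of DESeq2 for Gc. These last counts carry no weight for the 4 genes chosen on that contrast. Any 2 of the 3 comparisons share libraries, and both comparisons with 12 months rest on the same pair of 12-month libraries.

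**Figure D2:**
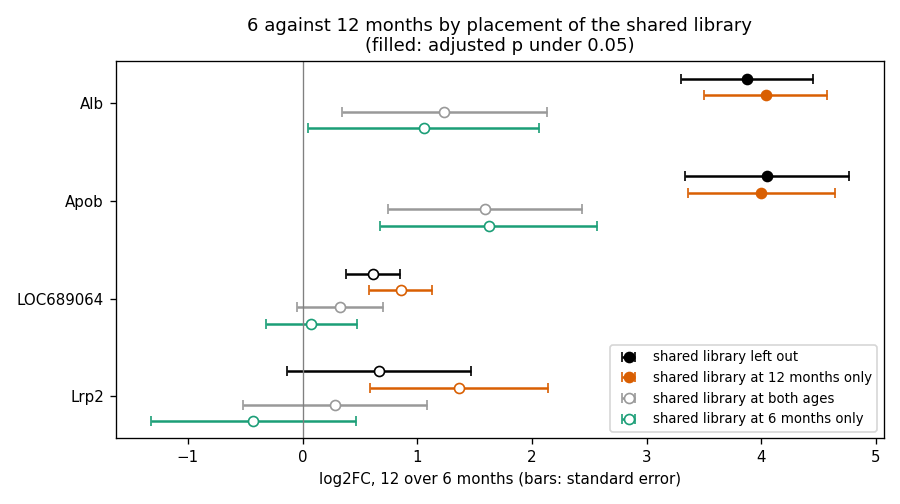
The log2FC between 6 and 12 months (x axis, positive is higher at 12 months, bars are standard errors) for the 4 genes that were not chosen on this contrast, with the shared library left out, at 12 months only, at both ages or at 6 months only. Filled points have an adjusted p under 0.05 by the quasi-likelihood test, which holds for Alb and Apob with the library left out or at 12 months only.

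The reads of the plasma protein genes were also set against each other within each library. Apob made up 38.8% of the 260 reads of Apob and Alb together over the 8 libraries (exact 95% binomial interval 32.9 to 45.1%). In single libraries the share of Apob was 40.0% in both libraries at 6 months, 39.5 and 45.2% at 12 months (samples 1 and 2), 37.5, 41.7 and 0% at 28 months (samples 1 to 3), and 33.8% in the shared library. The share of 0% rests on 6 reads and allows up to 45.9%, and the interval of each of the 8 libraries contained the overall share. Gc made up 19.7% of the reads of Gc and Alb (interval 14.4 to 25.9%), with 0% in both 6-month libraries and 28 months sample 3, 8% in 12 months sample 1 and up to 36.4% in 28 months sample 2, and here too all 8 intervals contained the overall share. The overall shares include each library, the 6-month intervals rest on 3 to 5 reads and are wide, and equal proportions were not tested.

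The share of Lrp2 among the reads of Lrp2 and Alb ran from 12.5% in 28 months sample 2 to 83.3% in 6 months sample 3, with 34.0% over all libraries. The exact interval of 6 months sample 3 (58.6 to 96.4%) lay wholly above that overall share, and those of the other 7 libraries contained it. All these intervals cover counting error only.

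**Figure D3:**
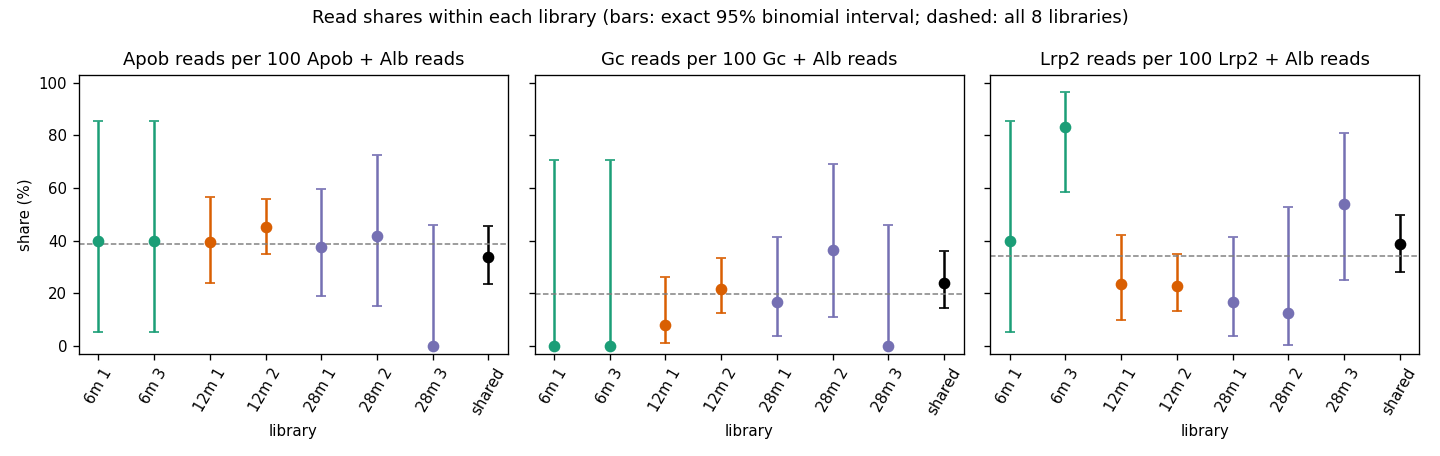
Reads of Apob, Gc or Lrp2 as a percent of the reads of that gene plus Alb in each library (y axis), with exact 95% binomial intervals and the share over all 8 libraries as a dashed line. The Apob and Gc intervals all reach the dashed line, while that of Lrp2 in 6 months sample 3 lies above it.

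LOC689064, the hemoglobin subunit beta-2 gene, was the only 1 of the 5 with more than 100 reads in every library. RefSeq gives this NCBI gene number, 689064, the symbol Hbb-bs and places it beside the beta-globin genes Hbb-b1, Hbbl1, Hbb-b2 and Hbb. Reads of such similar copies may be split or lost between them, so the level of this copy is uncertain. Its reads numbered 288 and 200 at 6 months (samples 1 and 3), 354 and 243 at 12 months (samples 1 and 2), 139, 152 and 191 at 28 months (samples 1 to 3), and 464 in the shared library.

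The normalized counts of LOC689064 were 27.1 ± 5.98 (SD, n = 2) at 6 months, 41.9 ± 12.1 (SD, n = 2) at 12 months and 22.4 ± 6.03 (SD, n = 3) at 28 months. The ages of 6 and 28 months overlapped, and the lower 12-month library (33.4) was close to the higher 6-month library (31.4). Relative to 6 months, LOC689064 had a log2FC of 0.62 at 12 months (standard error 0.24, adjusted p = 0.306 by the quasi-likelihood test, range over the alternatives 0.00348 to 0.997) and of -0.28 at 28 months (standard error 0.24, adjusted p = 0.891, range 0.804 to 1). The first was 0.87 without 6 months sample 1 and 0.89 without 12 months sample 2. It was 0.40 without 6 months sample 3 and 0.28 without 12 months sample 1. Each of these fits leaves 1 library at an age, and the lowest adjusted p of the first range came from such a fit. Between 12 and 28 months, the contrast that chose the gene, the log2FC of LOC689064 was -0.90 (standard error 0.24). The globin gene spanned a narrower range of levels over the ages than Alb or Apob, though this difference was not tested.

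Lrp2 reads were few and varied as much within an age as between ages. They numbered 2 and 15 at 6 months (samples 1 and 3), 7 and 15 at 12 months (samples 1 and 2), 3, 1 and 7 at 28 months (samples 1 to 3), and 32 in the shared library. The normalized counts were 0.968 ± 1.06 (SD, n = 2) at 6 months, 1.53 ± 0.752 (SD, n = 2) at 12 months and 0.523 ± 0.481 (SD, n = 3) at 28 months, and every pair of ages overlapped.

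Relative to 6 months, the log2FC of Lrp2 was 0.67 at 12 months (standard error 0.80, adjusted p = 0.765 by the quasi-likelihood test, range over the alternatives 0.141 to 0.997) and -0.90 at 28 months (standard error 0.93, adjusted p = 0.920, range 0.875 to 1). Both turned with 1 library: the first was -0.16 without 6 months sample 1, and the second 1.17 without 6 months sample 3. Between 12 and 28 months, the contrast that chose Lrp2, the log2FC was -1.56 (standard error 0.73), and it was -0.94 without 12 months sample 2 and -2.27 with the shared library as labelled. The highest value of Lrp2 was that of the shared library, with 4.46 normalized counts (exact Poisson 95% interval 3.05 to 6.30) against at most 2.06 elsewhere.

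The shared library was the highest of the 8 for Alb, Gc, LOC689064 and Lrp2, and second to 12 months sample 2 for Apob. For Alb and Gc its lead over 12 months sample 2 was within counting error. The normalized counts were 7.11 against 7.01 for Alb and 2.23 against 1.92 for Gc. Of all 16374 genes with at least 5 reads in a library, 15.4% were highest in the shared library. The same library held 147 reads of Tph1, the tryptophan hydroxylase of the pineal gland and of peripheral serotonin cells, against 0 to 8 in the other 7 libraries, and the part of other tissue in its values was not tested.

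Likeness between genes was measured as the Pearson r of log2(CPM + 0.5) over the 8 libraries, which share ages and depth, and is given as a description. Among the plasma protein genes it was 0.94 for Alb and Apob, 0.90 for Alb and Gc, and 0.90 for Apob and Gc, and without the shared library it was 0.93, 0.85 and 0.90. With the globin gene, r was 0.61 for Alb, 0.52 for Apob and 0.47 for Gc, and fell to 0.39, 0.34 and 0.07 without the shared library. Among 16374 genes, 8 were at least as like Alb as Apob was, with Apob itself counted. Gc, being at 0 in 3 libraries, is placed by few reads.

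Beyond each other, Alb and Apob were most like the MHC class II genes among the 39 further protein-coding genes with a name here. RT1-Da, which encodes an alpha chain that presents antigen on microglia and other myeloid cells, came first for Alb (r = 0.96), Apob (0.93) and Gc (0.87). Next for Alb were RT1-Ba (0.95) and RT1-Db1 (0.91), for Apob RT1-Bb and Cd74, the invariant chain (both 0.90), and for Gc RT1-Bb (0.84) and the epithelial cadherin gene Cdh1 (0.83). The normalized counts of RT1-Da were 2.94 and 2.98 at 6 months (samples 1 and 3), 21.0 and 38.3 at 12 months (samples 1 and 2), 7.28, 9.95 and 5.76 at 28 months (samples 1 to 3), and 25 in the shared library. Like Alb, it was lowest at 6 months and highest in 12 months sample 2 among the libraries of settled age. The names come from lists that the study drew from these samples for differences with age, so named genes are not a neutral set, and most genes in the files have no name here.

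LOC689064 and Lrp2 had other nearest genes. For LOC689064 these were Tf (r = 0.83), the identifier paired with the iron carrier transferrin although its listed description is that of another protein, then E9PSV0_RAT (0.81), listed as complement component 4, gene 2, and Gfap (0.78). For Lrp2 they were Tph1 (0.78), Gfap (0.65) and RGD1306682 (0.57), and without the shared library these values were 0.58, 0.52 and 0.51. Of the serotonin and pineal list (5 genes), Tph1 and Tph2 have an identifier and 0 passed between any ages.

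**Figure D4:**
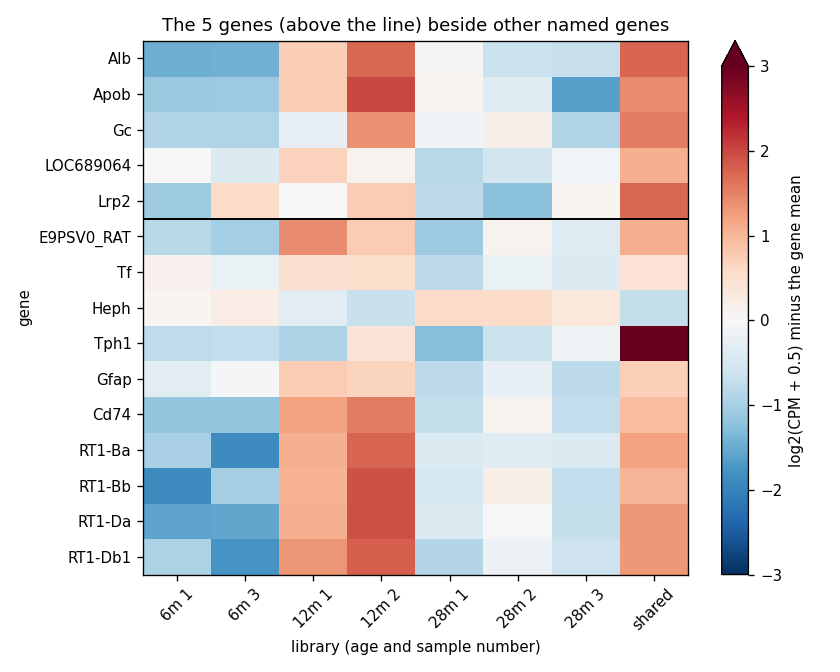
Colours give log2(CPM + 0.5) minus the mean of each gene over the 8 libraries (columns), for the 5 genes above the line and other named genes below it. The scale ends at 3, which Tph1 exceeds in the shared library. Alb, Apob and RT1-Da are higher at 12 months and in the shared library than in the other libraries. The same holds for LOC689064, E9PSV0_RAT, Tf, Gfap, Cd74, RT1-Ba, RT1-Bb and RT1-Db1.

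Of a list of 29 plasma proteins made mainly by the liver, 5 have an identifier here: Alb, Apob, Gc, E9PSV0_RAT and Tf. Between 6 and 12 months, 3 of the 5 rose (Alb, Apob and E9PSV0_RAT), 0 fell and 2 did not pass the test. The median log2FC was 3.88 against -0.01 over all genes tested. It was 2.74 with Gc at the bound that takes its 16 reads at 12 months as exact. That median is the value of Gc itself, which was chosen on these ages. Between 6 and 28 months 0 of the 4 tested passed, with a median log2FC of 1.09 against -0.01. From 12 to 28 months 0 of the 5 passed, with a median log2FC of -1.77 against 0.01. Since the identifiers are known only for genes that the study had picked from these samples, these counts are not independent evidence.

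E9PSV0_RAT, a complement gene that is also expressed by glia, had 9 and 7 reads at 6 months (samples 1 and 3), 46 and 29 at 12 months (samples 1 and 2), 6, 17 and 10 at 28 months (samples 1 to 3), and 37 in the shared library. It rose between 6 and 12 months with a log2FC of 2.53 (standard error 0.43, adjusted p = 0.0267 by the quasi-likelihood test). The call was lost with the shared library at 6 months only (log2FC 1.23, adjusted p = 0.676) and without a low-count filter (2.52, adjusted p = 0.0593). The study lists E9PSV0_RAT for 12 against 28 months. The 12-month libraries thus took part in its listing, and this test is not independent of it. Tf had a log2FC of 0.52 between 6 and 12 months (adjusted p = 0.218) and, between 12 and 28 months, the ages on which the study lists it, of -0.95. Its level at 12 months, 207 and 209 normalized counts, was above all other libraries, and oligodendrocytes are a known source of transferrin in brain. Heph, the ferroxidase hephaestin, had the opposite order, with 8.70 and 6.87 normalized counts at 12 months against 11.5 and 13.1 at 6 months and 14.1 to 16.9 at 28 months (log2FC -0.67 between 6 and 12 months, adjusted p = 0.241). Tf and Heph are the genes with an identifier of the iron and copper list (7 genes), of which 0 passed between any ages.

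Of the glial markers with an identifier, the astrocyte gene Gfap and the microglial gene Cd74 were higher at 12 than at 6 months, as Alb and Apob were. Gfap rose with a log2FC of 0.88 (standard error 0.16, adjusted p = 0.0328) and Cd74 with 2.65 (standard error 0.21, adjusted p = 0.000602), both by the quasi-likelihood test. Aif1, the second gene of the microglial list, had a log2FC of 0.71 (adjusted p = 0.238). With the shared library at 6 months only, the log2FC was 0.52 for Gfap (adjusted p = 0.676) and 1.54 for Cd74 (adjusted p = 0.581), both past the threshold no longer. The Gfap call was also lost with that library at 12 months only (log2FC 0.88, adjusted p = 0.0635), in 1 fit over the 7 libraries (adjusted p = 0.0851) and without a low-count filter (adjusted p = 0.0731), where those of Cd74 held. Between 12 and 28 months, the ages on which the study lists these 3 genes, the log2FC was -1.29 for Gfap, -1.82 for Cd74 and -1.60 for Aif1, given as a description. The 12-month libraries took part in that listing, so their tests from 6 to 12 months are not independent of it. Of the 4 neuronal genes, Nptxr, Egr3 and Hrh3 are listed by the study for 6 against 12 months, and Arc for 6 against 28 months. Between 6 and 12 months the median log2FC of the 4 genes was -0.77, with -0.28 for Arc. That of the histamine receptor gene Hrh3 was -2.39, and -1.94 with the shared library at 6 months only. The part of these cell types in the values of Alb and Apob was not tested. For the choroid plexus list (9 genes) and the endothelial list (2 genes), 0 have an identifier here, and of the erythroid list (9 genes) and the list of megalin and its partners (8 genes) LOC689064 and Lrp2 alone have 1, so the other genes of these lists were not analysed here. The same holds for the vitamin D list (5 genes), where Gc alone has 1.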

How the data were processed

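Total RNA of rat cerebral cortex was depleted of ribosomal RNA and sequenced on the SOLiD system. The authors mapped the reads with Bowtie to the Ensembl rat genome (rn4), counted them per gene with HTSeq and deposited raw counts without normalization. Program versions and the strand setting are not given in the sources used here. The 5 lines that name no gene were left out; reads on no gene were 47.5 to 60.0% of those mapped.

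Each pair of ages was tested with edgeR 4.0.16 (R 4.3.3; TMM, quasi-likelihood test, Benjamini-Hochberg adjustment, threshold 0.05) over all genes that reached 5 reads in 1 or more of its libraries. The library deposited under both ages was set aside. Normalized counts (CPM) were scaled by TMM over the 8 independent libraries. Standard errors were derived from the log2FC and the F statistic. Levels are not compared between genes, since no transcript lengths were at hand. Intervals were computed in scipy 1.17.1, at 95%. The fits were checked on simulated data with a true log2FC of 2. At a mean of 20 reads or more, the quasi-likelihood test recovered 95 to 96 of 100 changed genes. At 5 to 20 reads it recovered 42, 43 and 49 of 100 (6 against 12, 6 against 28 and 12 against 28 months). A gene of few reads that did not pass may therefore still differ. The false calls of this test numbered 16, 14 and 29 in the same order. In each comparison they were a larger share of its calls than the threshold of 0.05 allows for. An adjusted p not far below the threshold is therefore less sure than it looks.

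The members, lists, motifs and the treatment of the shared library were chosen with earlier results of these data known. Gene names come from the study's supplementary tables, which pair 114 identifiers with a name, 44 of them protein-coding. Besides the 5 members, the text names the list genes with an identifier and, for each member, the 3 named protein-coding genes most like it. Alternatives were other placements of the shared library, the edgeR exact test with tagwise dispersion (prior df 28, proportion 0.5, grid length 500), DESeq2 1.42.0, RLE size factors, 2 other low-count filters, the most abundant gene left out, 1 fit over the 7 libraries, and each library left out in turn. The study's own fold changes and p-values were not used. A gene was left out of the neuronal list and of its counts, and is not reported here.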

Additional observations from a re-analysis of the deposited data

Results flagged for a closer look

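The library deposited under both 6 and 12 months stands outside the main comparisons. All 5 genes were above both 6-month libraries in it. The share of all genes for which this holds was not computed, so the count supports nothing. Under the stricter condition of lying above the 7 others, the share of all genes was 15.4%. Alb had 7.11 normalized counts (CPM) there, Apob 3.62 and Gc 2.23. LOC689064 had 64.7 and Lrp2 4.46. Whether its age or its tissue content goes with these values was not tested.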

How the results depend on the processing

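The calls between 6 and 12 months changed with the placement of the shared library. With it set aside, 191, 33 and 19 genes were called between 6 and 12, 6 and 28, and 12 and 28 months. With it as labelled, 0, 18 and 9 were. Of the 5 members, 0 were called between 6 and 12 months with it as labelled (0 genes) or at 6 months only (19 genes), where it at 12 months only gave 109 genes. In those fits the log2FC between 6 and 12 months was 1.24 and 1.06 for Alb and 1.59 and 1.62 for Apob, and -0.43 for Lrp2 with the library at 6 months only. Between 6 and 28 months it was -0.96 for Alb and -1.01 for Apob. The exact test called 463, 138 and 128 genes, and 3 members between 12 and 28 months. DESeq2 called 246, 70 and 82 genes and 1 member between 6 and 12 months, where it gave no adjusted p for Apob, Gc or Lrp2. Without a low-count filter 112, 199 and 139 genes were called, with 1 member between 6 and 12 and 3 between 12 and 28 months, and Apob had a log2FC of 4.04 (adjusted p = 0.0751). A mean of at least 20 reads left 10 genes called between 12 and 28 months and 1 member between 6 and 12 months, since it removed Apob, Gc and Lrp2. The fit over 7 libraries called 1 member there, with a log2FC of 4.05 for Apob (adjusted p = 0.0625).

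With each library left out in turn, where a lone library of an age is assumed to vary like the others, 360 to 889, 0 to 137 and 0 to 142 genes were called, and 2 to 3, 0 and 0 to 2 members. No gene was called without 28 months sample 3 in either comparison with 28 months, nor without 12 months sample 2 between 12 and 28 months. Between 6 and 12 months the log2FC ranged from 3.17 to 4.59 for Apob, from 0.28 to 0.89 for LOC689064 and from -0.16 to 2.72 for Lrp2. That of Lrp2 between 6 and 28 months ranged from -1.83 to 1.17. Leaving out the most abundant gene multiplied all CPM by 1.96 to 1.98. Calls of members between 12 and 28 months include the 4 chosen on those ages, and support nothing. The causes were not tested. No paired analysis was possible because the labels give no replicate numbers: samples were numbered in accession order within an age, and nothing links the rats of different ages.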
